A study of Danio rerio with 4 samples.

Results

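The cytosolic ribosomal protein genes of the zebrafish were taken from the deposited table by symbol: names starting with rpl or rps on protein-coding rows, without the rps6k kinases and rps27l, and with a value of at least 10 in at least 2 of the 4 libraries. The pattern matched 93 rows, of which 10 were kinases, and 1 of the other 83, rps8b, stayed below the filter with values of 3 and 6 in Cre-injected and 2 and 3 in uninjected libraries. This left 82 genes of the 16754 tested and the 20390 listed, 49 for the large and 33 for the small subunit. They include rps19bp1, which encodes a binding partner of Rps19 and no ribosome component, and 2 rows each under the symbols rpl26 and rpl37. The table describes 1 of the rpl26 rows, ENSDARG00000101794, as a V-type proton ATPase subunit, so its identity is uncertain.

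RNA came from whole embryos at the 6-somite stage. Both groups carry the allele bns298, a transgene made of the hsp70l promoter, a STOP cassette flanked by loxP, and npas4l joined through the linker GGGGGLSRS and P2A to mCherry. The promoter answers to heat, Npas4l is a transcription factor required for the blood and vessel lineages, and Cre excises DNA flanked by loxP, here the STOP cassette. The 2 Cre-injected libraries are from embryos given Cre as zygotes and the 2 uninjected libraries are from embryos of the same line. All were raised at 28 °C and, per the labels' protocol, heat-shocked at 37 °C for 1 h. The design has no injected embryos lacking the transgene, so each difference below may belong to the injection, to Cre or to npas4l, which cannot be told apart, and the same holds for clutch and exact stage. How many embryos made up a library, and which cells lost the cassette, the labels do not say.

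The ribosome joins a small subunit, which decodes the messenger RNA, to a large one, which forms the peptide bond and lets the new chain out through a tunnel. Cells make the proteins of both subunits in matched amounts. In vertebrates their messenger RNAs start with a terminal oligopyrimidine (TOP) tract, through which the mTOR kinase and the RNA-binding protein Larp1 control their translation and stability. When ribosome assembly is disturbed, Rpl5 and Rpl11 together with 5S rRNA bind and inhibit the ubiquitin ligase Mdm2, which sets off a checkpoint response, as described in mammalian cells. Loss of single ribosomal protein genes in zebrafish is used as a model of Diamond-Blackfan anaemia.

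The values are read counts that the authors normalised and rounded, so they are called normalised values below. They summed to 8933474 and 9861419 in the Cre-injected and to 9093935 and 9479827 in the uninjected libraries. The row of npas4l, listed under the clone name CABZ01080135.1, stood at 710 and 808 in Cre-injected and at 370 and 279 in uninjected libraries. Its log2 fold change was 1.23 ± 0.16 (SE; adjusted p = 0.00051 by limma). Transcripts of the transgene and of the endogenous gene can both count there, and the values do not tell them apart. The gene hsp70l, whose promoter the transgene uses, had 66 and 280 in Cre-injected and 33 and 26 in uninjected libraries, a log2 fold change of 2.18 ± 0.58 (SE; adjusted p = 0.0494 by limma). Cre-injected replicate 2 stood apart in this gene, and the part of that in the results below was not tested. Of 35 marker genes for 12 parts of the embryo, 31 reached 10 in all 4 libraries, and each part had at least 1 such marker. The median chi-square between libraries of a group over the 82 genes was 12.5 for the Cre-injected and 3.32 for the uninjected pair. Over all genes tested it was 2.38 and 1.28. Its expected split followed the library totals although the values were already normalised, so part of it can come from that scaling. It also grows with level, so the 82 genes cannot be called noisier than other genes from it. The labels name no separate clutches for the replicates, and p-values therefore rest on a spread that may be technical.

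Ribosomal protein transcripts were lower in Cre-injected embryos in 30 of the 82 genes, and higher in 0, at an adjusted p under 0.05 by limma (at an unadjusted p under 0.05 by limma the counts were 44 lower and 0 higher). Both subunits took part: 18 of 49 large subunit genes and 12 of 33 small subunit genes were lower. Over all genes tested 6.19% were lower and 6.35% higher, against 36.6% lower among the ribosomal protein genes. These shares are at the adjusted threshold. The share of all genes at an unadjusted p under 0.05 was not counted, so unadjusted counts here and below have no background. Among genes with a mean of at least 1000, where the test sees smaller changes, 10.3% were lower and 16.3% higher, and of the 58 ribosomal protein genes at that level 24 were lower. The log2 fold changes of the 82 genes had a median of -0.31, with -0.98 for rpl22l1 as the lowest. The median over all genes tested was 0.0, which the normalisation of the values can set in advance. Among genes with a mean of at least 1000 it was 0.088. The medians of the large and small subunit genes taken apart were both -0.31, and 68 of the 82 differences were negative.

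Summed over the 82 genes, normalised values were 224601 and 258760 in Cre-injected and 283335 and 286508 in uninjected libraries. This is 2.51% and 2.62% of the Cre-injected totals and 3.12% and 3.02% of the uninjected totals. The groups did not overlap in either sum or share. Mitochondrial ribosomal RNA, which takes up reads in these total RNA libraries, made up 12.0% and 16.1% of the Cre-injected and 12.3% and 16.4% of the uninjected totals, so it varied between replicates in both groups. With it left out of the totals, the ribosomal protein share was 2.86% and 3.13% in Cre-injected and 3.56% and 3.61% in uninjected libraries. Large and small subunit genes kept a like ratio of their sums, 1.39 and 1.32 in Cre-injected and 1.39 and 1.36 in uninjected libraries. In whole embryos, fewer cells rich in these transcripts and less of them per cell cannot be told apart.

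Markers of several tissues moved with the groups as well. Of the 35 markers 10 were lower and 3 higher by limma, where 6.19% of all genes tested were lower and 6.35% higher. Summed, the markers stood at 130111 and 152750 in Cre-injected and 203601 and 199764 in uninjected libraries, most of it from epidermal keratins. Of 4 epidermal markers 3 were lower, among them the keratin gene krt4, at 57982 and 66332 in Cre-injected and 104183 and 101126 in uninjected libraries (-0.73), and the epidermal regulator gene tp63, at 584 and 598 in Cre-injected and 900 and 996 in uninjected libraries (-0.68). The yolk layer had 1 lower marker of 3, the apolipoprotein gene apoa2. It had 1540 and 1342 in Cre-injected and 4001 and 4680 in uninjected libraries (-1.59). The other yolk layer markers, apoa1a (-0.16) and apoa1b (-0.27), did not pass. The hatching gland gene he1.1 had 683 and 401 in Cre-injected and 1116 and 1123 in uninjected libraries (-1.10). Of 5 neural plate markers 3 were lower, and of 3 neural crest markers 2 were. The higher genes were msgn1 (1 of 5 paraxial mesoderm and muscle markers), sox32 (1 of 3 endoderm markers) and etv2 (1 of 3 blood and endothelium markers). The values of sox32 were low, at 16 and 93 in Cre-injected and 3 and 0 in uninjected libraries. Beside msgn1, myod1 (-0.45), myf5 (-0.33) and myog (-1.13) were negative and tbx16 (0.03) positive, without passing. Beside etv2, gata1a (-0.88) was negative and tal1 (0.47) positive, without passing. The part of these tissues in the ribosomal protein differences was not tested.

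The 2 Cre-injected libraries were not alike in how far they fell. Relative to the mean of the uninjected pair, the median gene stood at -0.41 on the log2 scale in Cre-injected replicate 1 and at -0.20 in replicate 2. In replicate 1 75 of 82 genes were below that mean, and in replicate 2 61 were. Both Cre-injected values lay below both uninjected ones in 52 of the 82 genes, against 28.8% of all genes tested. They lay above both in 3 of the 82, against 28.0% of all genes tested, and the groups overlapped in 27.

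The calls depend on which libraries enter. Without uninjected replicate 1 the lower genes numbered 2 (rpl17 and rpl22l1), and without uninjected replicate 2 they numbered 3 (rpl22l1, rps9 and rps16), with 29 and 21 lower at an unadjusted p under 0.05; in these fits the spread comes from the Cre-injected pair alone. Without Cre-injected replicate 2 the median log2 fold changes were -0.41 for large and -0.43 for small subunit genes. Without Cre-injected replicate 1 both medians were -0.20. Positive differences there included those of rpl5b, rpl14, rpl19, rpl29, rplp2, rps18 and rps27.1 (0.23 to 0.64). Without a Cre-injected library the spread comes from the closer uninjected pair alone, so passing in those fits is no check of a call. Calls over all genes tested also became fewer without an uninjected library and more without a Cre-injected one. Of the 30 calls made with all libraries, that of rpl22l1 alone held whichever library was left out. Scaling to equal library totals ended those of rpl8, rpl13a, rpl18, rps14 and rps19. The sign of all 30 lower genes was negative in each of the 17 other fits. Both Cre-injected values of each of them lay below both uninjected ones. Only the 6 scalings could therefore have changed a sign, and the other fits are no check of it.

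**Figure D1:**
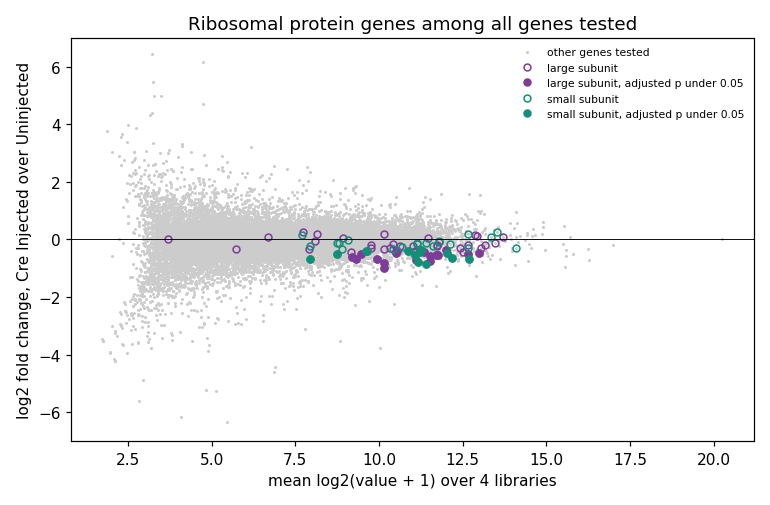
Log2 fold change of Cre-injected over uninjected embryos (vertical axis) against the mean log2(value + 1) over 4 libraries (horizontal axis) for all 16754 genes tested, with large subunit genes in purple and small subunit genes in green. Filled circles are the 18 large and 12 small subunit genes at an adjusted p under 0.05, all of them below 0.

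Among large subunit genes the largest difference was that of rpl22l1 (chromosome 24, 26475182 to 26479841, GRCz11), a copy of rpl22 that is needed for blood stem cell emergence in zebrafish. It stood at 682 and 954 in Cre-injected and at 1591 and 1602 in uninjected libraries. Both Cre-injected values were far below the uninjected pair, with a log2 fold change of -0.98 ± 0.15 (SE; adjusted p = 0.00139 by limma). Its parent gene rpl22 (chromosome 11, 29650011 to 29658396), needed for T cell development, had 555 and 616 in Cre-injected and 831 and 847 in uninjected libraries. It fell less, by 0.52 ± 0.12 (SE; adjusted p = 0.0169) on the log2 scale.

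Both belong with the proteins at or near the exit of the peptide tunnel, where 5 of 11 genes were lower and 0 higher by limma. These 11 include the rpl26 row of uncertain identity. Over all genes tested 6.19% were lower, and among the 82 ribosomal protein genes 36.6% were. The groups by place in the ribosome were formed after the values were seen. No count of such a group, here or below, is read as particular to it. The tunnel wall gene rpl17 (chromosome 21, 18997503 to 19067517) had 926 and 778 in Cre-injected and 1498 and 1505 in uninjected libraries, with a log2 fold change of -0.82 ± 0.12 (SE; adjusted p = 0.00126). Its span also holds nefma and nefla, whose values were 9 and 12, and 12 and 10, in Cre-injected and 1 and 2, and 4 and 5, in uninjected libraries. The small tunnel protein gene rpl39 overlaps upf3b on the same strand, so the level of rpl39 is uncertain. The values of upf3b were 371 and 627 in Cre-injected and 249 and 312 in uninjected libraries. The gene rpl39 fell, at 522 and 435 in Cre-injected and 757 and 693 in uninjected libraries (-0.60). The tunnel rim gene rpl31 fell too, at 1272 and 1200 in Cre-injected and 1716 and 1717 in uninjected libraries (-0.47). Not all tunnel genes did so: rpl4, whose protein forms the narrow point of the tunnel, had 10731 and 10974 in Cre-injected and 11714 and 12048 in uninjected libraries (adjusted p = 0.437), and rpl19, which also bridges the subunits, had 7441 and 8456 in Cre-injected and 6975 and 7362 in uninjected libraries (adjusted p = 0.414).

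The 3 genes of the 5S particle did not pass the test in either direction. For rpl11 (chromosome 19, 43780970 to 43786940) the values were 7971 and 8274 in Cre-injected and 7499 and 7552 in uninjected libraries, with a log2 fold change of 0.11 ± 0.10 (SE; adjusted p = 0.519). This is 1 of the 3 genes whose Cre-injected values both lay above the uninjected ones (rpl19 is another). Its partner genes rpl5a (3219 and 3656 in Cre-injected, 3736 and 3652 in uninjected libraries) and rpl5b (12435 and 15374 in Cre-injected, 13304 and 12969 in uninjected libraries) had log2 fold changes of -0.11 and 0.07, with groups that overlapped.

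In the stalk, which recruits elongation factors, 1 of 5 genes was lower, where 6.19% of all genes tested were. This was rplp1, at 2947 and 2815 in Cre-injected and 4146 and 4241 in uninjected libraries (log2 fold change -0.54 ± 0.10 (SE), adjusted p = 0.00557). Its base gene rplp0 had 6448 and 5705 in Cre-injected and 7222 and 6675 in uninjected libraries (adjusted p = 0.271). The partner gene rplp2 had 331 and 748 in Cre-injected and 499 and 459 in uninjected libraries, so that its 2 Cre-injected values lay on either side of the uninjected pair. Its log2 fold change was 0.06 ± 0.36 (SE; adjusted p = 0.938). It was 0.64 with replicate 1 of the Cre-injected pair left out and -0.53 with replicate 2 left out. Likewise rplp2l stood at 207 and 348 in Cre-injected and 277 and 277 in uninjected libraries.

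Of the 30 remaining large subunit genes, rpl7l1 among them, 12 were lower and 0 higher. Over all genes tested 6.19% were lower and 6.35% higher, and of the 82 ribosomal protein genes 36.6% were lower. The closest replicates were those of rpl7 (chromosome 2, 30177476 to 30182353), at 2235 and 2279 in Cre-injected and 3844 and 3833 in uninjected libraries, with a log2 fold change of -0.77 ± 0.10 (SE; adjusted p = 0.0007). The gap between groups was many times the gap within them. The intersubunit bridge gene rpl24 had 658 and 901 in Cre-injected and 1283 and 1209 in uninjected libraries, and rpl28 had 1549 and 1940 in Cre-injected and 2901 and 2818 in uninjected libraries (-0.69 and -0.72). Also lower were, among others, rpl30, whose protein in budding yeast blocks the splicing of its own transcript (-0.70), rpl27 (-0.58), the L1 stalk gene rpl10a (-0.53), rpl7a (-0.49), rpl15 (-0.45), rpl18 (-0.40), rpl8, next to the peptidyl transferase centre (-0.38), and rpl13a (-0.36).

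Several large subunit genes that missed the threshold had Cre-injected libraries that disagreed. The values of rpl13 were 3944 and 6411 in Cre-injected and 7066 and 6673 in uninjected libraries (log2 fold change -0.45 ± 0.19 (SE), adjusted p = 0.149). Those of rpl36a were 399 and 600 in Cre-injected and 651 and 663 in uninjected libraries (adjusted p = 0.13). For rpl9, 158 and 279 in Cre-injected stood against 263 and 273 in uninjected libraries. In each of these, Cre-injected replicate 1 was well below the uninjected pair and replicate 2 close to it. At the other end, rpl29 (191 and 275 in Cre-injected, 185 and 197 in uninjected libraries), rpl38, needed in mice for translation of Hox transcripts (285 and 321 in Cre-injected, 210 and 333 in uninjected libraries), and rpl14 (1006 and 1434 in Cre-injected, 1014 and 1118 in uninjected libraries) had positive differences of 0.26, 0.19 and 0.17 on the log2 scale that did not pass the test.

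**Figure D2:**
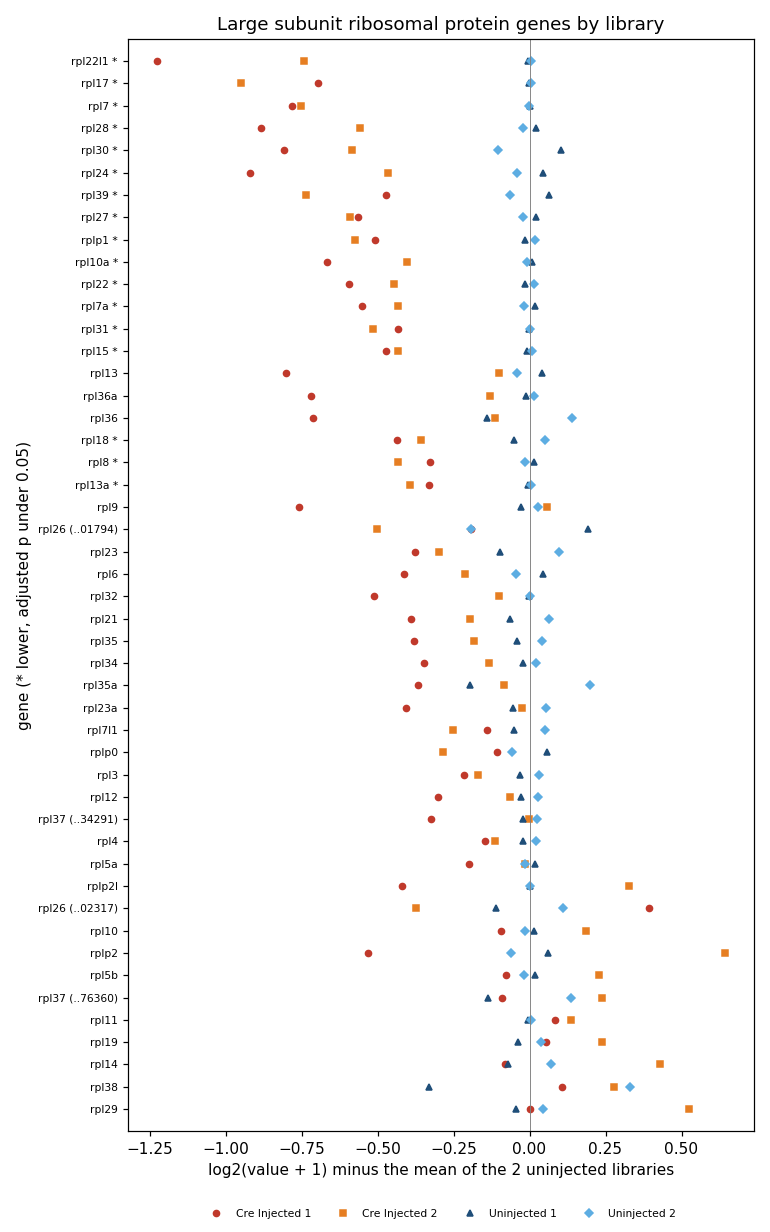
Log2(value + 1) of 48 large subunit genes in the 4 libraries, minus the mean of the 2 uninjected libraries, ordered by fold change from most negative (top). Asterisks mark the 17 of these genes at an adjusted p under 0.05, and the last digits of the Ensembl identifier tell the 2 rows of rpl26 and of rpl37 apart. Cre-injected replicate 1 lies left of replicate 2 in 37 of 48 genes.

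In the small subunit the largest differences were those of rps9 and rps16. The gene rps9 (chromosome 16, 31921812 to 31927522), for a protein near the entry of the messenger RNA channel, had 2231 and 1812 in Cre-injected and 3749 and 3455 in uninjected libraries, with a log2 fold change of -0.84 ± 0.12 (SE; adjusted p = 0.00115). The gene rps16 (chromosome 4, 21648010 to 21652812), whose protein reaches the tRNA in the P site, had 1799 and 1710 in Cre-injected and 3161 and 2910 in uninjected libraries, with a log2 fold change of -0.79 ± 0.11 (SE; adjusted p = 0.000785). Both genes stood at less than 0.6 of the uninjected mean (0.559 and 0.578 from the fit), with no overlap of the groups.

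Of the 20 small subunit genes not placed in the head, rps19bp1 among them, 10 were lower and 0 higher. Over all genes tested 6.19% were lower. The gene rpsa, also known as the laminin receptor gene, had 5267 and 5163 in Cre-injected and 8269 and 8310 in uninjected libraries (log2 fold change -0.67 ± 0.10 (SE), adjusted p = 0.00151). Its neighbour in the assembled subunit, rps21, had 219 and 171 in Cre-injected and 313 and 309 in uninjected libraries (-0.68). For rps3a the values were 3478 and 4028 in Cre-injected and 5898 and 5863 in uninjected libraries (-0.65). Each of these had tight uninjected pairs and both Cre-injected values well below. Also lower were rps13 (-0.54), rps26l (-0.52), rps7 (-0.47), rps4x (-0.45), the Diamond-Blackfan anaemia gene rps24 (-0.40) and rps14, which lies in the region deleted in the human 5q- syndrome (-0.36).

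In the head of the small subunit, 2 of 13 genes were lower and 0 higher, where 6.19% of all genes tested were lower. The lower genes were rps16 and rps19. The gene rps19, the most often mutated in Diamond-Blackfan anaemia, had 690 and 705 in Cre-injected and 915 and 940 in uninjected libraries (log2 fold change -0.41 ± 0.12 (SE), adjusted p = 0.0382). In contrast, rps18, whose protein bridges the subunits, had 5744 and 8570 in Cre-injected and 5709 and 6525 in uninjected libraries (log2 fold change 0.20 ± 0.16 (SE), adjusted p = 0.448). Here replicate 2 of the Cre-injected pair was the high one, while replicate 1 lay within the uninjected range.

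The ubiquitin fusion gene rps27a, made as ubiquitin joined to a head protein, had 1435 and 1912 in Cre-injected and 2268 and 2139 in uninjected libraries (log2 fold change -0.41 ± 0.14 (SE), adjusted p = 0.0687). The gene rps6, whose protein is phosphorylated by S6 kinase, had 5166 and 6657 in Cre-injected and 7457 and 6934 in uninjected libraries (adjusted p = 0.154). Both were lower in each Cre-injected library than in either uninjected one, without passing the test.

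**Figure D3:**
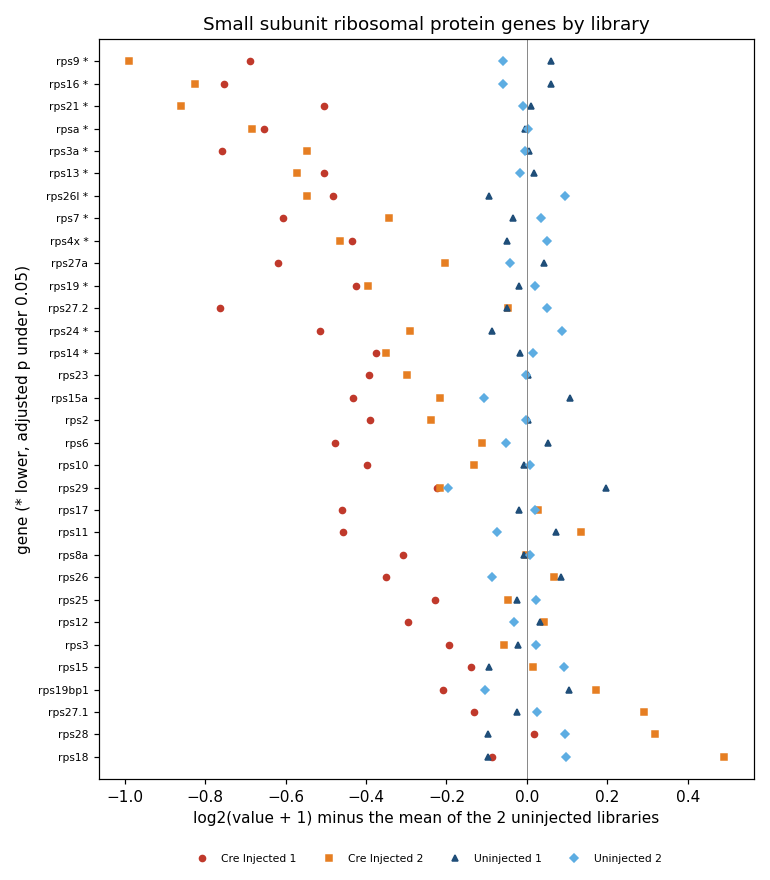
Log2(value + 1) of 32 small subunit genes in the 4 libraries, minus the mean of the 2 uninjected libraries, ordered by fold change from most negative (top). Asterisks mark the 12 genes at an adjusted p under 0.05. Replicate 2 of the Cre-injected pair lies right of replicate 1 in 25 of 32 genes.

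The ratios of some pairs of like-named genes did not overlap between groups. The ratio of rpl22l1 to rpl22 was 1.23 and 1.55 in Cre-injected and 1.91 and 1.89 in uninjected libraries, and that of rps27.2 to rps27.1 was 0.0577 and 0.0707 in Cre-injected and 0.088 and 0.0909 in uninjected libraries. In both pairs the ratio was lower in Cre-injected libraries. The ratio of rpl5b to rpl5a moved the other way, at 3.86 and 4.21 in Cre-injected and 3.56 and 3.55 in uninjected libraries, and so did that of rpl7l1, related to an assembly factor of yeast ribosomes, to rpl7, at 0.378 and 0.343 in Cre-injected and 0.234 and 0.251 in uninjected libraries. The ratios of rplp2l to rplp2, of rps26l to rps26 and of the 2 rpl26 rows overlapped between groups. These ratios are given without a test. Of all genes tested, 28.8% had both Cre-injected values below both uninjected ones and 28.0% had both above. Groups without overlap are therefore common, and no shift in balance is read from them. Reads shared by near-identical copies may have been split or dropped by the authors' counting. The 2 rpl26 rows overlap on the same strand (values of 9 to 16 and of 41 to 67), so their levels are uncertain.

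**Figure D4:**
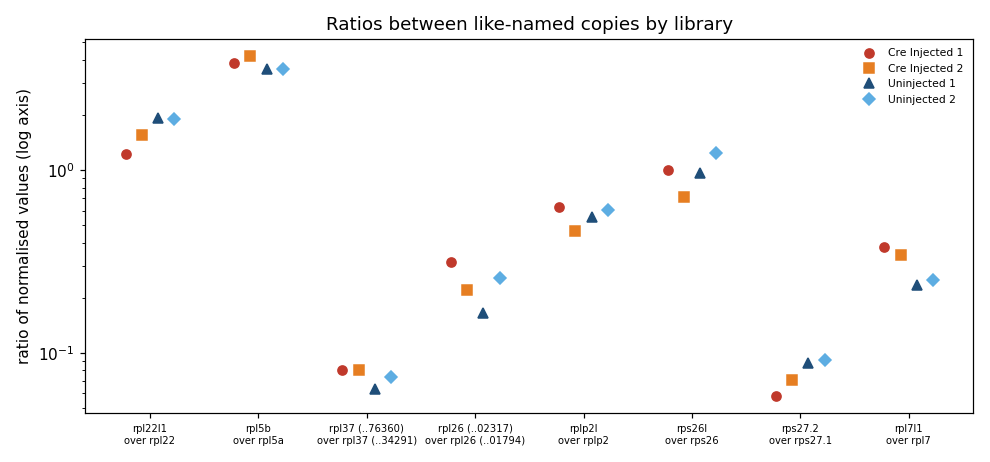
Ratio of the normalised values of 2 like-named genes (vertical log axis) in each of the 4 libraries for 8 pairs (horizontal axis). The Cre-injected points lie below the uninjected ones for rpl22l1 over rpl22 and rps27.2 over rps27.1, and above them for rpl5b over rpl5a, rpl7l1 over rpl7 and the pair of rpl37 rows.

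Some ribosomal protein genes carry small nucleolar RNA (snoRNA) genes in their introns, which guide the modification of ribosomal RNA. The table lists 35 snoRNA genes inside 17 of the 82 genes on the same strand, with sums of at most 472 per library and at most 4.52% of the host's value. Of the 17 hosts 6 were lower and 0 higher, and of the 65 others 24 were lower and 0 higher. Only 12 of the snoRNA rows could be tested, and 1 was lower and 0 higher. This is near the 6.19% lower of all genes tested, and nothing is read from the count. The lower row is a copy inside rps7 with 26 and 27 in Cre-injected and 79 and 55 in uninjected libraries (log2 fold change -1.28, adjusted p = 0.0207 by limma). Of the 82 genes 17 overlap another protein-coding gene, and of the 65 that do not 21 were lower and 0 higher.

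Among ribosomal proteins whose genes go by other names, faua and rack1 fell. Of 3 tested, 2 were lower and 0 higher by limma (3 lower and 0 higher at an unadjusted p under 0.05). Over all genes tested 6.19% were lower. The gene faua, which encodes Rps30 fused to a ubiquitin-like protein, had 1063 and 1092 in Cre-injected and 1970 and 1864 in uninjected libraries (log2 fold change -0.83 ± 0.11 (SE), adjusted p = 0.00062). The scaffold gene rack1, whose protein sits on the head of the small subunit, had 3350 and 3225 in Cre-injected and 5158 and 4983 in uninjected libraries (-0.63). The groups were well apart in both, while faub had 71 and 95 in Cre-injected and 99 and 164 in uninjected libraries and did not pass (adjusted p = 0.146). Without uninjected replicate 1 or 2 only faua passed (3 and 2 of the 3 genes were lower at an unadjusted p under 0.05).

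A list of other genes known in mammals for TOP transcripts, whose zebrafish tracts were not checked here, had 9 lower and 2 higher of 32 tested. Its median log2 fold change was -0.30. Over all genes tested 6.19% were lower and 6.35% higher, so nothing is read from the count of 2 higher genes. The 4 with the smallest p were eif3i, eef1g, eef1b2 and vim. The elongation factor gene eef1a1l1 had 47217 and 48360 in Cre-injected and 69346 and 67049 in uninjected libraries (-0.51), eef1g had 2302 and 2362 in Cre-injected and 3512 and 3595 in uninjected libraries (-0.61), and the initiation factor gene eif3i had 944 and 1047 in Cre-injected and 1739 and 1547 in uninjected libraries (-0.72). The elongation factor gene eef1b2 had 572 and 495 in Cre-injected and 924 and 868 in uninjected libraries (-0.75), and the intermediate filament gene vim had 49 and 34 in Cre-injected and 124 and 104 in uninjected libraries (-1.45). All of these had both Cre-injected values below both uninjected ones, as did the translationally controlled gene tpt1, which had 9319 and 7179 in Cre-injected and 13491 and 12570 in uninjected libraries (-0.67). Against these, naca, for a chaperone of nascent chains, rose (5346 and 7361 in Cre-injected, 3645 and 4439 in uninjected libraries), as did the nucleolar gene npm1a (9799 and 11505 in Cre-injected, 7854 and 8381 in uninjected libraries), by 0.64 and 0.39 on the log2 scale. Without uninjected replicate 1 or 2 the calls of naca (adjusted p = 0.307 and 0.095) and npm1a (adjusted p = 0.481 and 0.333) by limma were lost. Lower genes of the list numbered 0 and 2 without uninjected replicate 1 and 2, and 14 each time 1 of the Cre-injected libraries was left out. The calls of npm1a and of the small differences of eef1db, eif3f and btf3 ended under some of the other scalings.

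Among 32 tested regulators of TOP transcripts and ribosomal protein genes 3 were higher and 1 lower, where 6.35% of all genes tested were higher and 6.19% lower, and nothing is read from counts this near the background. At an unadjusted p under 0.05 by limma 9 regulators were higher and 3 lower. The kinase gene mtor had 1156 and 911 in Cre-injected and 708 and 763 in uninjected libraries (log2 fold change 0.48), a call that ended with scaling to equal library totals, and the genes of its partner Rictor (rictora, 0.61) and of a translation repressor that mTOR restrains (eif4ebp3l, 0.61) rose too. Another repressor gene, eif4ebp2, had 509 and 502 in Cre-injected and 913 and 980 in uninjected libraries (log2 fold change -0.90 ± 0.12 (SE), adjusted p = 0.000696). Without uninjected replicate 1 or 2, eif4ebp2 was the 1 gene of this list to pass. Of 15 genes for chaperones and importers of ribosomal proteins 1 was higher, a share near the 6.35% of all genes tested: the snoRNP assembly gene nufip1, at 550 and 578 in Cre-injected and 297 and 335 in uninjected libraries (0.84). Its call was lost without uninjected replicate 1, and 0 genes of the list were lower by limma. At an unadjusted p under 0.05 by limma 4 genes of the list were higher and 0 lower. Of 15 genes for ribosome quality control and recycling 4 were higher (ltn1, tcf25, gcn1 and ddx3xa, by 0.53 to 0.64) and 0 lower. At an unadjusted p under 0.05 by limma 5 of them were higher and 1 lower. The 4 calls were lost without uninjected replicate 1 and also without uninjected replicate 2.

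A stress checkpoint list held mdm2 and genes that respond with it when ribosome assembly or DNA is disturbed. By limma 9 of its 15 tested members were higher in Cre-injected embryos and 0 lower, with a median log2 fold change of 0.75. Over all genes tested 6.35% were higher and 6.19% lower. The list was chosen with earlier results of these data known, so its share is no independent test against that background. At an unadjusted p under 0.05 by limma, 11 genes of the list were higher and 1 lower. The ubiquitin ligase gene mdm2 had 6136 and 6714 in Cre-injected and 2341 and 2008 in uninjected libraries (log2 fold change 1.57 ± 0.11 (SE), adjusted p = 1.7e-05). The gene phlda3, which encodes a brake on Akt signalling, had 988 and 888 in Cre-injected and 263 and 274 in uninjected libraries (1.80). The cell cycle inhibitor gene cdkn1a had 522 and 768 in Cre-injected and 198 and 228 in uninjected libraries (1.57). All 3 had groups far apart.

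The apoptosis genes bbc3 (520 and 475 in Cre-injected, 206 and 147 in uninjected libraries), baxa and baxb rose by 1.51, 0.71 and 0.97 on the log2 scale. The genes sesn1 (514 and 500 in Cre-injected, 277 and 249 in uninjected libraries), which restrains mTOR signalling, and ccng1 were higher as well, by 0.95 and 0.58. The gene mdm4, a relative of mdm2, had 450 and 480 in Cre-injected and 502 and 512 in uninjected libraries (adjusted p = 0.567). Without uninjected replicate 1 or 2, the calls of mdm2, cdkn1a, sesn1, phlda3 and bbc3 held both times. Those of ccng1, baxa and baxb were lost both times. The part of this response in the ribosomal protein differences was not tested.

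The remaining higher gene of that list is rps27l, listed under the clone name CABZ01079011.1 (chromosome 25, 34641536 to 34650374), a copy of rps27 that the membership rule leaves out. It stood at 1096 and 1047 in Cre-injected and at 662 and 611 in uninjected libraries, a log2 fold change of 0.75 ± 0.12 (SE; adjusted p = 0.00189 by limma), and its call was lost without uninjected replicate 2. Its relatives rps27.1 (9220 and 12368 in Cre-injected, 9922 and 10281 in uninjected libraries) and rps27.2 (532 and 875 in Cre-injected, 873 and 935 in uninjected libraries) had log2 fold changes of 0.08 and -0.40 that did not pass. Among the ribosomal protein genes described here, it is the 1 that passed as higher with all libraries.

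**Figure D5:**
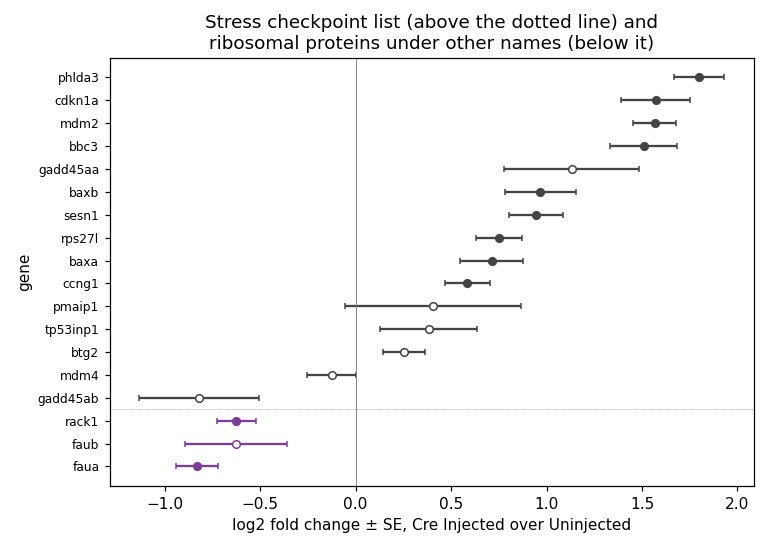
Log2 fold change ± SE of Cre-injected over uninjected embryos (horizontal axis) for the 15 tested genes of the stress checkpoint list (above the dotted line) and 3 ribosomal protein genes under other names (below it). Filled circles passed an adjusted p under 0.05, and they are the 9 higher genes, rps27l among them, and the 2 lower genes faua and rack1.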

How the data were processed

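The deposited table lists whole-number scores by gene and library. Some whole numbers are skipped or overfilled at regular steps, a pattern left by counts that were divided by a number near 1 and rounded, and the scores are therefore read as normalised read counts of the authors. Per the submitters' processing notes, the tools include DESeq2 1.14.1, featureCounts 1.6.0, STAR 2.6.0c, Trimmomatic 0.36 and FastQC 0.11.8, and the genome is GRCz11 (danRer11); their roles and the strand setting are not stated there. The kit was a stranded total RNA kit for 10 ng of input, per the labels. Without the strand setting, values of overlapping genes are uncertain.

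Groups came from the sample titles. The test was limma 3.58.1 (R 4.3.3) with log2(value + 1) as input, a mean-variance trend and robust shrinkage, as fixed for normalised values in place of a count model. It covered all 16754 genes that reached 10 in 2 or more libraries, with Benjamini-Hochberg adjustment over all of them and a threshold of 0.05. Because of the added 1, changes of low genes come out too small. The fit was tested on simulated data. Values carry no transcript length, so levels are not compared between genes. Members, lists and tests were chosen with earlier results of these data known, and the structural groups and copy pairs after the values were seen. Genes named were those past the threshold, extremes of each subunit, copies, stalk genes and, in other lists, up to 4 by smallest p; further list members were named after their values were seen. Alternatives were other scalings, filters, pseudocounts, thresholds and shrinkage, each library left out in turn, and a replicate block. The results of some genes are not reported here: the members among them stay in the counts over members, and the others are left out of their lists. Names of npas4l and rps27l came from a table of gene identifiers. Figures were drawn with matplotlib 3.10.9.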

Additional observations from a re-analysis of the deposited data

How the results depend on the processing

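Median log2 fold changes of both subunits stayed negative under every alternative run, and under those that kept all 4 libraries they moved by less than the replicate spread. Dropping the filter, the shrinkage and trend settings and the replicate block leave each member's estimate unchanged. Those fits are therefore no check of the medians. Without 1 Cre-injected library the median is that of the other alone. Under the 6 scalings, 25 of the 30 lower genes passed each time. At an adjusted p under 0.01, 9 large and 5 small subunit genes were lower (14 together), 20 genes of the other lists passed, and 412 and 449 of all genes were higher and lower; at 0.1, 1614 of all genes were lower. Limma without the mean-variance trend called 0 large and 0 small subunit genes (16 and 10 lower at an unadjusted p under 0.05), 0 ribosomal protein genes in all, 1 gene of the other lists, phlda3, and 30 higher and 68 lower of all genes, and the cause was not tested. Leaving out each library in turn gave 1 to 33 lower and 0 to 5 higher large subunit genes, 0 to 23 lower and 0 to 3 higher small subunit genes, 2 to 56 called ribosomal protein genes, 9 to 50 called genes of the other lists, where 31 passed with all libraries, and 228 to 2064 higher and 210 to 1871 lower of all genes. The value of rplp2 ran from -0.5306 to 0.6432 over the libraries left out, negative without Cre-injected replicate 2. Like-numbered libraries deviated from their group means with a correlation of -0.0314, and the numbers are not taken as pairs. Mitochondrial ribosomal RNA did go with the number, so something shared by like-numbered libraries is not excluded. With a replicate block 18 large and 10 small subunit genes were lower. The totals without mitochondrial, structural RNA and ribosomal protein genes were an alternative chosen after seeing the data. Count models were not run, since the values are normalised.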
